A study of Mesocricetus auratus with 24 samples.

Results

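Windows of 1 kb whose CpG methylation was intermediate, a mean level of 30 to 70% in each of 6 groups of Syrian hamster fetal cells, numbered 867 of the 22842 windows measured (3.80%). A window was measured when every one of the 24 libraries listed 3 or more CpG positions in it, with the strands of a CpG listed apart. The level of a window in a library was the percent of methylated reads, summed over its positions with each position weighted by its coverage. Because the levels themselves chose the windows, they are given here as a description and are not tested against other windows. Of the other measured windows, 12997 lay under 30% in every group and 3715 over 70% in every group. Another 2472 had a mean over the 24 libraries of 30 to 70% but at least 1 group outside that range. The remaining 2791 had a mean outside it and groups on both sides of a limit.

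A single cytosine on a single DNA molecule is either methylated or not, so the level of a bulk library is the share of molecules that carry the mark. In mammals, CpG-dense promoters are mostly unmethylated and the bulk of the other CpGs are mostly methylated, which leaves intermediate levels to a minority of CpGs. Intermediate levels are known from imprinted regions, where maternal and paternal alleles differ, from mixtures of cells that differ, and from domains that lose methylation gradually as cultured cells divide.

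The assay was reduced representation bisulfite sequencing, in which CpG-rich restriction fragments are sequenced after bisulfite has changed unmethylated cytosines. It was applied to cells of a transformation assay in which fetal cells form colonies that are scored for altered morphology. DMSO libraries came from pools of about 60 vehicle-treated colonies (0.2% DMSO) and B[a]P libraries from pools treated with 5 µg/mL benzo[a]pyrene, a hydrocarbon whose metabolites damage DNA; both were collected on day 9. Cultures of B[a]P-treated colonies, grown for 19 to 25 days, had normal (Nc) or morphologically transformed (MTc) colonies as their origin. The SEN libraries sampled a culture from 1 transformed, B[a]P-treated colony in senescence on day 48, and the SENbp libraries sampled it on day 94, after senescence had been bypassed. Thus 5 of the 6 groups had been exposed to B[a]P. The pools, Nc and MTc came from cells of a single male fetus and were described as biological replicates. Their spread does not extend to other fetuses. SEN and SENbp were technical replicates of 1 culture, from an assay on pooled female and male fetuses with a colony typed as male, so their spread does not extend to other cultures.

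The 24 libraries listed 809562 to 1484688 positions each, with coverage summed over positions of 30316233 to 67276906. A read that spans several positions is counted at each of them. No position under 10 reads is in the deposited tables. One library stood somewhat apart in these windows: Nc 2 had a mean of 42.95% over the 867 windows, where the other 23 libraries lay between 48.09% and 53.08%. Sequences, genes and annotation are not given, because a genome and annotation of the assembly the coordinates belong to were not used here. Windows are therefore placed by scaffold, start and end as the deposited tables number them.

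Averaged over the 867 windows, the 6 groups had nearly the same level. The mean was 50.21% ± 1.51 in DMSO, 51.38% ± 0.766 in B[a]P and 48.46% ± 4.06 in Nc (SD, n = 4 libraries each). It was 50.95% ± 1.83 in MTc, 51.47% ± 1.01 in SEN and 52.37% ± 0.725 in SENbp. Over all 22842 measured windows the group means ran from 28.29% in DMSO to 34.39% in SENbp, a wider span than in the intermediate windows, whose group means the rule confined. Within this narrow span SENbp was the group with the highest level in 219 of the 867 windows (25.3%) and Nc the group with the lowest level in 205 (23.6%). SENbp was also the lowest group in 172 windows (19.8%), and Nc the highest in 79 (9.11%). DMSO, B[a]P, MTc and SEN were highest in 126, 170, 121 and 152 windows and lowest in 148, 91, 113 and 138.

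The bypass culture removed more windows from the set than any other group. When the rule was applied to the 5 groups other than SENbp, 1153 windows were in range, and 867 of them (75.2%) were also in range in SENbp. Of the windows lost, 248 were over 70% in SENbp and 38 were under 30%. Leaving out any of the other groups in the same way gave 950 to 995 windows, of which 87.1 to 91.3% were also in range in the group left out.

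**Figure D1:**
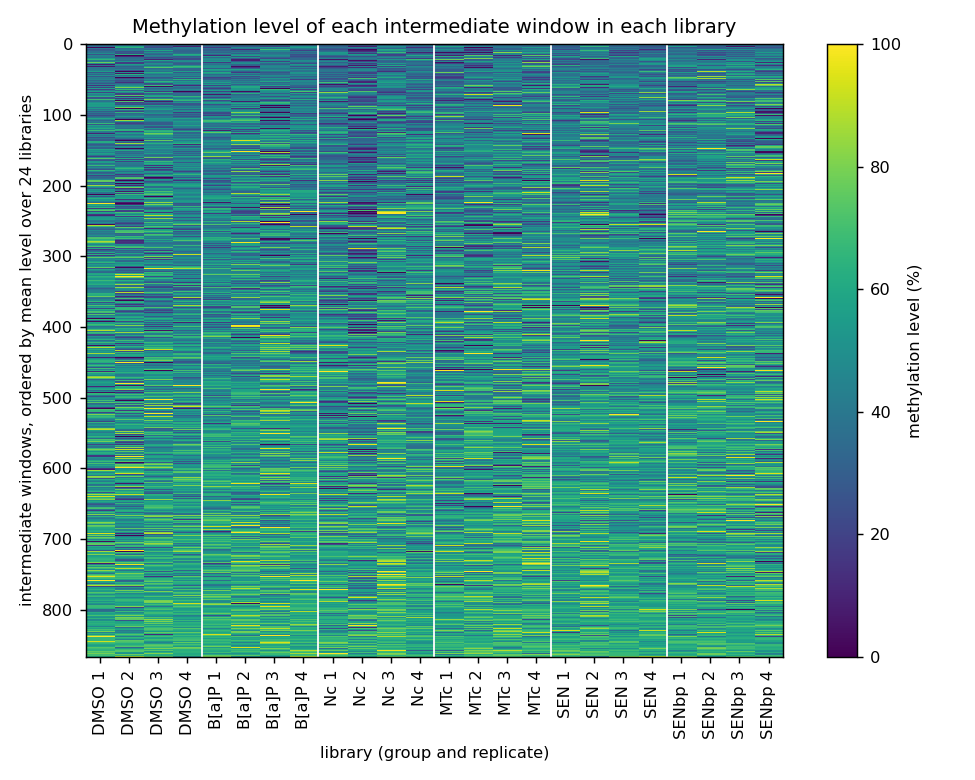
Methylation level (%, color) of each of the 867 intermediate windows (vertical axis, ordered by mean level over the 24 libraries) in each library (horizontal axis, grouped, with white lines between groups). Dark and bright cells scattered within every group are single libraries far from the 30 to 70% range; Nc 2 is darker than the other Nc libraries.

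A group mean of 30 to 70% did not require each library to lie there, and most windows had libraries outside the range. All 24 libraries were in range in 59 windows (6.81%), at least 22 in 176 (20.3%) and at least 18 in 535 (61.7%). At the other end, 4 windows had 9 of 24 libraries in range. Seen by library, the share of the 867 windows outside the range was lowest in SEN 3 (12.92%) and highest in Nc 2 (34.72%). In 5 of the 6 groups, all but MTc, the library with the highest share outside was the one that listed the fewest positions. In MTc the highest share was that of MTc 4, at 27.8%, and MTc 2 listed the fewest positions. The part of the number of positions in this share was not tested.

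The spread between replicates was large. The SD over the 4 libraries of a group had a median over the windows of 13.94 points in DMSO, 11.56 in B[a]P, 14.41 in Nc, 13.74 in MTc, 10.51 in SEN and 11.37 in SENbp. The technical replicates of the senescent and bypass cultures thus had the smallest medians, although these were still over 10 points. The windows over 70% in every group had medians of 4.51 to 7.70 points and those under 30% in every group 1.04 to 1.85 points. The 2472 windows with a mean in range but a group outside had 10.94 to 16.97 points. Levels near 0 or 100% leave less room for a spread, so these classes differ in what they can show.

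**Figure D2:**
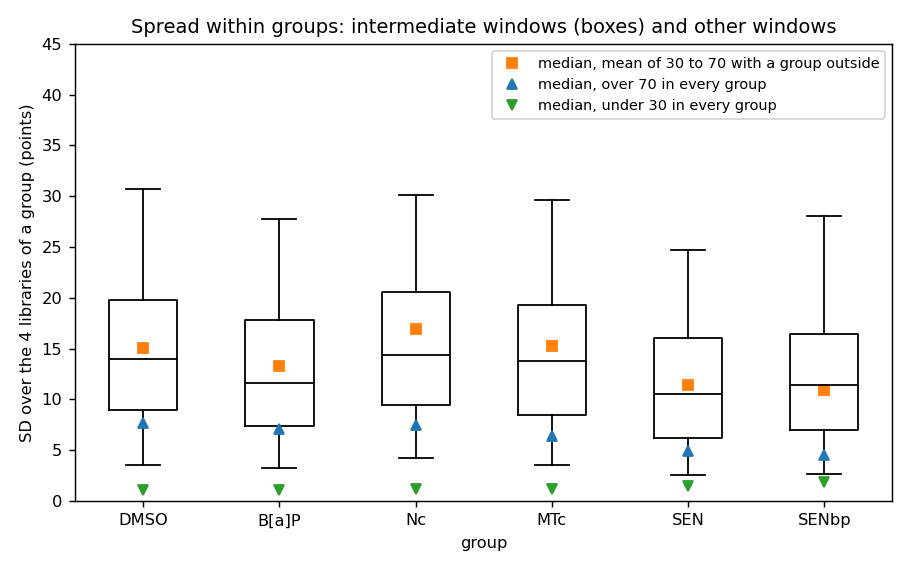
SD of the level over the 4 libraries of each group (vertical axis, percentage points) for the 867 intermediate windows, as boxes from the lower to the upper quartile with the median as a line and whiskers from the 5th to the 95th percentile; points give medians of the other classes of windows. The box medians lie between 10.51 points in SEN and 14.41 in Nc, above the medians of the windows over 70% or under 30% in every group.

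Over all 24 libraries the SD of a window had a median of 15.62 points, with quartiles of 12.25 and 18.9 and extremes of 1.85 and 29.74. Independent reads at the same coverage would give a median of 2.33 points. The observed SD was a median of 6.70 times that value, with quartiles of 5.28 and 8.52. Reads that are PCR copies of one another, or that cover several positions, are not independent, and the tables do not show whether copies were removed. The range between the highest and the lowest group mean had a median of 19.71 points and reached 38.56. Such ranges arise beside within-group SDs of the same order, so an ordering of the groups in a single window is mostly within its replicate spread.

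Windows with more reads per position had both a higher share of intermediate levels and a smaller spread. Of 8178 measured windows with a mean of 10 to 30 reads per position, 86 were intermediate (1.05%). The share was 3.81% (426 of 11178) at 30 to 50 reads, 8.60% (214 of 2489) at 50 to 100, 11.54% (86 of 745) at 100 to 300 and 21.83% (55 of 252) at 300 or more. The median SD over 24 libraries of the intermediate windows ran 17.06, 16.77, 15.54, 9.77 and 6.11 points over the same classes. The 55 windows with the most reads also included 24 of the 59 windows with every library in range. Among the intermediate windows 16.3% had 100 or more reads per position, against 4.37% of all measured windows. The part of coverage in the share of intermediate windows was not tested.

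**Figure D3:**
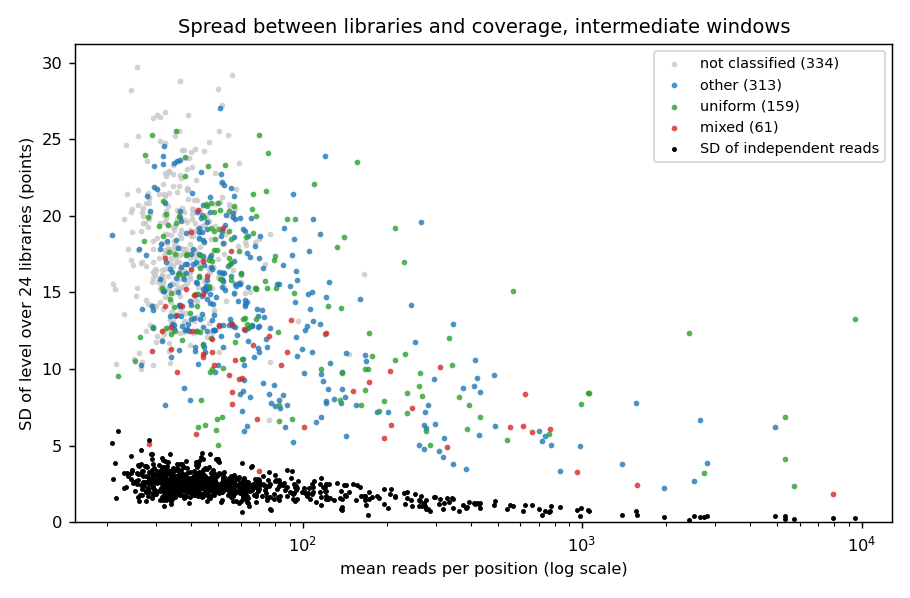
SD of the level over 24 libraries (vertical axis, percentage points) against mean reads per position (horizontal axis, log scale) for the 867 intermediate windows, colored by the pattern of levels at their positions. Black points give the SD that independent reads would give; most windows under 100 reads per position lie above 10 points, and those at 300 or more have a median of 6.11 points.

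The steadiness of a window also went with how completely the same positions were read. A library listed a median of 57.2% of the positions that any library listed in an intermediate window, so 2 libraries often read different CpGs of a window. Coverage moved with this share. In windows where a library listed on average under 40% of the positions, the median SD over 24 libraries was 17.82 points at 32.3 reads per position. At 40 to 60%, 60 to 80% and 80 to 100% it was 16.8, 14.64 and 10.29 points at 38.81, 51.95 and 87.96 reads. The part of coverage in this trend was not tested. In 261 of the 867 windows, at least 3 positions were listed in all 24 libraries. Over these shared positions alone the median SD was 10.3 points, and over all positions of the same 261 windows it was 10.1, while the other 606 windows had a median of 16.94. Within groups the shared positions gave median SDs of 9.03 points in DMSO, 7.05 in B[a]P, 11.32 in Nc, 8.43 in MTc, 6.18 in SEN and 6.32 in SENbp. Without Nc 2 the Nc value was 7.52. Of the 261 windows 209 met the rule on shared positions alone.

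The windows that varied least and most were compared among the 64 intermediate windows with 10 or more positions in every library. The steadiest was bases 1 to 1000 of scaffold KB710729.1, a short scaffold with positions listed up to base 5452. This window had a coverage summed over positions of 17489 to 31859 per library. Its level was 64.58, 68.19, 61.87 and 63.98% in DMSO, 65.51, 68.97, 67.49 and 64.98% in B[a]P, and 62.53, 62.43, 66.77 and 60.92% in Nc. It was 63.48, 64.46, 65.33 and 65.3% in MTc, 65.71, 63.55, 63.57 and 64.46% in SEN, and 61.27, 68.8, 63.29 and 63.53% in SENbp. All 6 groups overlapped, and the 24 libraries had a mean of 64.62% with an SD of 2.22 points. This steady value was not the level of its CpGs: of 11 positions listed in at least 3 libraries of each group, 5 were over 80% and 5 were at 30 to 70%, with pooled levels from 41.57 to 97.46%.

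The next steadiest windows were 21514001 to 21515000 of KB708140.1 (SD 4.25 points), 12766001 to 12767000 of KB708129.1 (5.26), 55249001 to 55250000 of KB708128.1 (6.13) and 19001 to 20000 of KB709148.1 (6.51). Their mean levels over the 24 libraries were 59.37, 61.7, 39.1 and 46.24%, and 22 or 23 libraries of each were in range. All of the 5 steadiest windows had 112 or more reads per position. The levels of 3 of them rested on how positions were weighted. With every position counted equally the mean was 70.76% in KB710729.1, 75.41% in KB708140.1 and 56.34% in KB708129.1. Without the 0.1% of positions with the highest coverage it was 83.23% in KB708140.1 and 48.3% in KB708129.1, and KB710729.1 was no longer measured in every library.

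The most variable was 513001 to 514000 of KB708411.1, with 33.3 positions per library on average and 39.2 reads per position. Its level was 56.67, 26.44, 64.39 and 51% in DMSO, 59.01, 47.21, 40.51 and 45.05% in B[a]P, and 0.641, 77.56, 73.07 and 67.99% in Nc. It was 87.91, 1.38, 90.77 and 67.94% in MTc, 56.39, 30.85, 56.33 and 72.19% in SEN, and 44.27, 61.33, 41.62 and 87.96% in SENbp. Nc 1 and MTc 2 were near 0 while the other libraries of their groups were at 67.94% or above, so the group means of 54.82% and 62% are not levels that any of those libraries had. The SD over the 24 libraries was 23.75 points. The windows 4453001 to 4454000 of KB708169.1, 68001 to 69000 of KB708246.1, 4966001 to 4967000 of KB708267.1 and 812001 to 813000 of KB708274.1 followed, with SDs of 22.74, 21.71, 21.4 and 20.24 points. In KB708267.1 the DMSO pools were at 3.31, 11.21, 71.82 and 80.61%, and in KB708169.1 the MTc cultures were at 52.18, 19.85, 82.27 and 98.33%. These 5 windows had 25.8 to 51.1 reads per position.

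**Figure D4:**
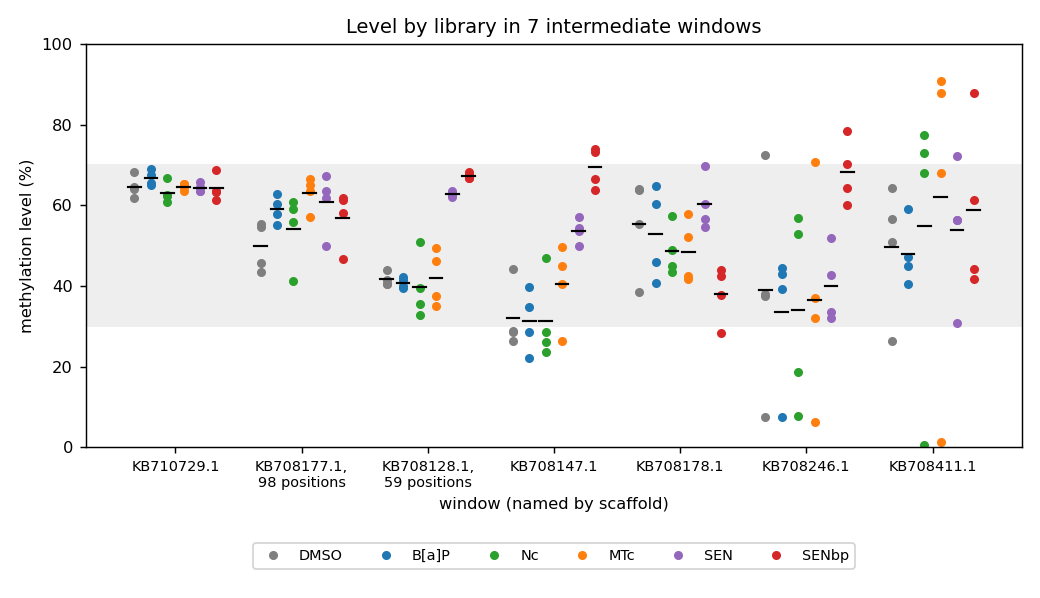
Level (vertical axis, %) in each library (points, colored by group, with a line at the group mean) for 7 intermediate windows named by scaffold; the gray band is 30 to 70%. KB710729.1 lies between 60.92 and 68.97% in every library, SENbp and SEN do not overlap in KB708128.1, KB708147.1, KB708178.1 and KB708246.1, and single libraries of KB708411.1 run from 0.641 to 90.77%.

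Intermediate windows held about as few CpG positions as windows over 70%, and fewer than windows under 30%. The mean number of positions per library had a median of 9 in the intermediate windows, with quartiles of 6.5 and 13.17. The median was 9.75 in windows over 70% in every group, 27.08 in windows under 30% in every group and 18.1 over all measured windows. By number of positions, 12.7% of windows with 3 to 5 positions were intermediate (104 of 819), then 8.65% with 5 to 10 (396 of 4576), 4.05% with 10 to 20 (287 of 7087), 0.902% with 20 to 40 (68 of 7542) and 0.426% with 40 or more (12 of 2818). Among the densest of these classes 95.9% of windows were under 30% in every group. The fall was not particular to the intermediate windows. Windows over 70% in every group made up 39.9% with 3 to 5 positions and 3.47% with 20 to 40. Windows with a mean in range but a group outside made up 21.6 and 3.53%. The number of positions is a count of those covered, strands apart, and depends on coverage and on the fragments selected as well as on the sequence.

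The densest intermediate window was 6518001 to 6519000 of KB708177.1, with 97.7 positions per library and every library in range. Its level was 55.43, 43.38, 54.66 and 45.81% in DMSO, 57.79, 60.31, 62.91 and 55.13% in B[a]P, and 55.93, 41.19, 60.82 and 58.99% in Nc. It was 57.13, 65.04, 66.62 and 63.63% in MTc, 63.55, 67.39, 50.04 and 61.92% in SEN, and 61.89, 61.25, 58.12 and 46.63% in SENbp. The groups overlapped, with B[a]P and MTc above DMSO except that B[a]P 4, at 55.13%, was below DMSO 1. Inside the window the levels were not uniform. Of 59 positions listed in at least 3 libraries of each group, 13 were under 20%, between bases 6518651 and 6518926, 20 were over 80%, between 6518836 and 6518972, and 15 were at 30 to 70%. The adjoining window, 6519001 to 6520000, was intermediate too, with a mean of 43.17%. With positions counted equally the means were 40.9 and 21.96%, and over positions listed in all 24 libraries 69.88 and 59.79%, so the level of this pair rested on the weighting and on the positions used.

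In the second densest window, 2952001 to 2953000 of the same scaffold, the groups were ordered as 45.38% ± 5.28 in DMSO, 47.45% ± 1.38 in B[a]P, 50.08% ± 11.4 in Nc, 53.74% ± 12.1 in MTc, 62.47% ± 2.79 in SEN and 65.17% ± 3.13 in SENbp. Each group overlapped the next in this order, and all SEN and SENbp libraries, at 61.02% or above, lay over all DMSO and B[a]P libraries, at 49.36% or below. This difference was not tested, since fetal origin, culture and time differ with it. The mean over the 24 libraries was 54.05% with coverage as the weight and 24.59% with positions counted equally. The third was the variable window of KB708267.1 described above, with 60.2 positions per library, and the fifth, 9709001 to 9710000 of KB708168.1, had 55.7 positions, a mean of 47.82% and an SD over the libraries of 13.73 points. In the fourth, 57001 to 58000 of KB708128.1, with 2408 reads per position, the pools and colonies lay apart from the cultures of the senescent line. DMSO was at 40.54, 41.47, 43.98 and 40.51%, B[a]P at 39.53, 42.15, 41.5 and 40.02%, Nc at 50.85, 39.5, 35.55 and 32.72%, and MTc at 35.12, 49.45, 46.1 and 37.41%. SEN was at 62.01, 63.66, 62.54 and 62.92% and SENbp at 66.81, 66.74, 67.74 and 68.28%. All 8 SEN and SENbp libraries were above the other 16. Here too fetal origin, culture and time cannot be told apart. Without the 0.1% of positions with the highest coverage the mean of this window was 31.25%, against 49.05% with them.

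An intermediate level of a window can come from positions that are all intermediate or from low and high positions side by side, and both were seen. In the 867 windows, of 18571 positions listed in any library, 2914 were listed in at least 3 libraries of each group. Pooled over the libraries, 1592 of these (54.6%) were at 30 to 70%, 367 (12.6%) were under 20%, 412 (14.1%) were over 80%, and 223 and 320 lay between 20 and 30% and between 70 and 80%. In the 2472 windows with a group outside the range, 53% of such positions were at 30 to 70%.

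**Figure D5:**
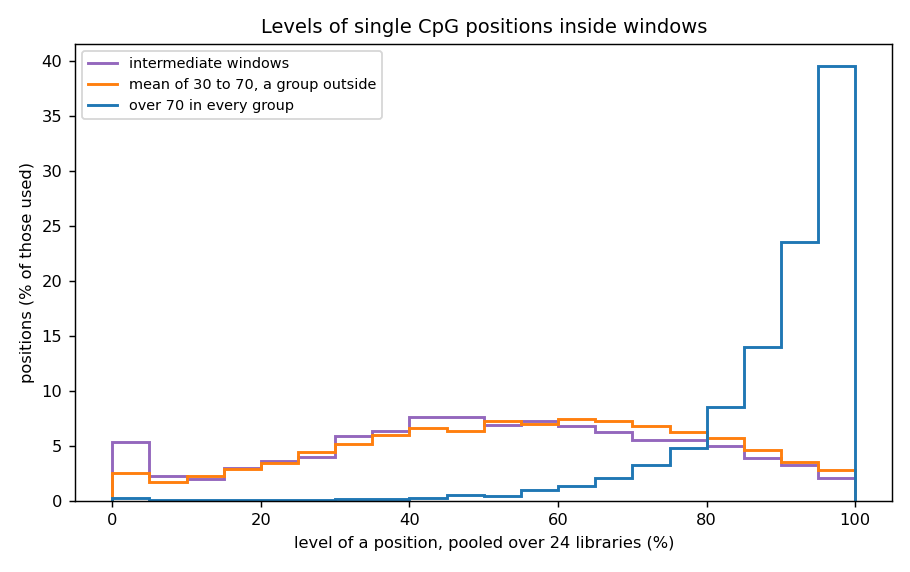
Level of single CpG positions pooled over the 24 libraries (horizontal axis, %, in bins of 5 points) as the percent of the positions used (vertical axis) in 3 classes of windows. Positions of the 867 intermediate windows spread over the whole scale with a broad rise at 30 to 70%, and those of windows over 70% in every group gather near 100%.

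With at least 3 such positions, 533 windows could be sorted by pattern. A window was called uniform when at least 75% of its positions were at 30 to 70%, and mixed when at least 25% were under 20% and at least 25% over 80%. Of the 533 windows 159 (29.8%) were uniform, 61 (11.4%) were mixed and 313 were neither. In the windows with a group outside the range, 26.8% of those sorted were uniform and 3.59% were mixed. Mixed windows had the smallest spread, with a median SD over 24 libraries of 10.8 points against 14.95 in uniform windows, 14.13 in those of neither kind and 17.72 in the 334 not sorted. The same order of mixed below uniform held within classes of coverage: 12.76 and 16.82 points under 50 reads per position, 10.85 and 16.53 at 50 to 100, and 6.26 and 8.89 at 100 or more. The patterns were set from pooled levels of these same libraries, and positions under 20% or over 80% leave less room for a spread. Classes of coverage do not remove this, so the order is given as a description.

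In 54 of the 61 mixed windows the low and high positions lay on separate sides of the window. The window 1090001 to 1091000 of KB708147.1 was of this kind, with 3 positions over 80% at bases 1090301 to 1090318 and 3 under 20% at 1090654 to 1090686. A window with a single low and a single high position always counts so, and mixed windows had a median of 6.13 positions per library. The count of 54 is therefore a description. In the windows with a group outside the range it was 32 of 40. In 6078001 to 6079000 of KB708214.1 and 188001 to 189000 of KB708208.1 the low and high positions overlapped along the window. The latter had 2 under 20% at 188498 and 188572 and 3 over 80% between 188559 and 188573. The uniform window 6834001 to 6835000 of KB708214.1 had 14 positions with pooled levels of 40.91 to 56.35%. Its single libraries nevertheless ran from 3.42% in SENbp 4 to 69.86% in SENbp 3, so the uniform pattern of the pooled level was not the pattern of each library.

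Single positions showed the same. At the 1592 positions with a pooled level of 30 to 70%, 29788 values of a single library rested on 30 or more reads, of which 51.8% were at 30 to 70% and 24.4% were under 10% or over 90%. In the 2472 windows with a group outside the range these shares were 37.1 and 40.7%. The share of such extreme values was 23.77% ± 12.5 in DMSO, 21.17% ± 9.91 in B[a]P, 26.8% ± 7.74 in Nc, 25.98% ± 6.88 in MTc, 22.21% ± 8.98 in SEN and 25.61% ± 8.62 in SENbp (SD, n = 4 libraries each). The SD inside each group was larger than the range of the 6 group means. Single libraries ran from 10.54% in B[a]P 1 to 41.69% in DMSO 2, and in every group but MTc the library with the fewest positions listed had the highest share. The part of repeated copies of the same molecule in these values was not tested.

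The 2 strands of a CpG were measured separately and were closer to each other than to nearby CpGs. For 294 CpGs with both strands listed, the pooled levels differed by a median of 9.47 points, 155 pairs (52.7%) were within 10 points and 26 were over 40 points apart. For 1833 pairs of neighbouring positions on the same strand, at most 50 bases apart, the median difference was 14.96 points and 318 (17.3%) were over 40 points apart. Neighbouring positions on a strand can share reads.

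Along the scaffolds most intermediate windows stood alone. There were 842 single windows, 11 pairs of adjoining windows and 1 run of 3 windows, at 8206001 to 8209000 of KB708174.1. Thus 25 windows (2.88%) adjoined another intermediate window, where 143 of all 22842 measured windows (0.626%) adjoined one. The comparison is limited by where windows were measured: 134 of the intermediate windows (15.46%) had any measured neighbour, against 33.2% of all, and among windows with a measured neighbour 18.7% and 1.89% adjoined an intermediate window. The share of 2.88% was 0.973% with the windows shifted by 500 bases, so it rested on where the windows began. Within 10 kb another intermediate window lay beside 50 (5.77%) and 2.55% of all, and within 100 kb beside 192 (22.1%) and 16.1% of all. Windows with a mean in range but a group outside had an intermediate window within 10 kb in 3.72% of cases. Within 100 kb they had one in 22.1%, the same share as the intermediate windows. Of those with a measured neighbour 6.34% adjoined an intermediate window. For the 767 intermediate windows with another on the same scaffold the median distance to the nearest was 471 kb.

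The run of 3 windows on KB708174.1 had mean levels of 51.83, 42.34 and 49.69% and SDs over the libraries of 16.19, 16.7 and 15.67 points. The libraries did not move together over the 3 windows. DMSO 4 was at 54.48, 50.18 and 89.2%, SENbp 4 at 74.97, 4.85 and 61.32%, and SEN 4 at 58.67, 84.55 and 51.06%. The pair at 644001 to 646000 of KB708395.1 was far steadier, at means of 47.12 and 33.88% with SDs of 4.94 and 3.18 points. Each window of this pair had a coverage summed over positions of 10155 or more in every library. Counted equally, the positions of this pair had means of 72.06 and 55.71%. Without the 0.1% of positions with the highest coverage the first window was at 87.77%, and the second was no longer measured in every library. The pair on KB708274.1 at 1902001 to 1904000 had means of 57.67 and 54.47%, and that on KB708341.1 at 264001 to 266000 had 43.61 and 59.84%.

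Windows beside an intermediate window were of every kind. Here a neighbour needed 3 or more positions in at least 1 library of each group, fewer libraries than in the measured set. Of the 473 neighbours with such a level, 27.7% were under 30%, 36.1% were at 30 to 70% and 36.1% were over 70%. Among all 124191 windows so measured these shares were 26.1, 23.2 and 50.6%. Among the neighbours of all measured windows they were 66.2, 13.6 and 20.2%. Neighbours of the windows with a mean in range but a group outside had similar shares, 30.3, 33.0 and 36.6%. For 82 intermediate windows both neighbours had a level. Of these, 20 lay between a low and a high neighbour (24.4%), 16 between high ones, 14 between intermediate ones and 3 between low ones. A low and a high neighbour flanked 28.2% of such windows with a group outside and 16.6% of all measured ones.

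Intermediate windows were spread over 252 of the 977 scaffolds with a measured window, and 100 scaffolds held 1 each. On the 136 scaffolds with 50 or more measured windows their share had a median of 3.56% and ran from 0%, on 5 scaffolds, to 9.80%. The most were on KB708127.1, with 22 of 924 measured windows (2.38%), KB708217.1, with 21 of 240 (8.75%), and KB708147.1, with 20 of 666 (3.003%). The highest shares were on KB708208.1 (5 of 51, 9.80%), KB708172.1 (5 of 53, 9.43%) and KB708281.1 (8 of 85, 9.41%). On short scaffolds, with positions listed to under 100 kb, 54 of 804 windows were intermediate (6.72%), against 813 of 22038 on the longer ones (3.69%). The measured windows of the short scaffolds had 100 or more reads per position in 8.83% of cases, against 4.202% on the longer ones.

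On 10 scaffolds the bypass libraries had a lower share of their reads than the senescent libraries, by a log2 ratio below -0.5. These held 47 intermediate windows of 765 measured (6.14%), against 820 of 22077 elsewhere (3.71%). Of the windows in range in the other 5 groups, 47 of 55 (85.5%) were also in range in the bypass culture on these scaffolds and 820 of 1098 (74.7%) elsewhere. The mean level of the intermediate windows on these scaffolds was 53.12% in SEN and 49.12% in SENbp, against 51.37 and 52.56% elsewhere.

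Differences between paired conditions were tested on all windows with 3 or more positions in the 8 libraries compared and a pooled level of 5 to 95%, and the intermediate windows were then read from that fit. Methylated and unmethylated reads were fitted with a quasi-binomial model, with p-values adjusted by the Benjamini-Hochberg method over all windows tested. A call needed both an adjusted p under 0.05 and a gap of 10 points or more between the group means. Since the rule for the intermediate windows bounds the means of both groups in each comparison, it also bounds their difference, and nothing is read from a low share of calls.

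In the bypass culture 5 intermediate windows had higher methylation than in senescence and 1 had lower. These 6 calls were of 836 tested (0.718%), where 3.62% of all windows tested were called, 3.31% as higher and 0.304% as lower. The 8 libraries of the 2 groups did not overlap in 52 windows (6.22%), against 10.6% of all windows tested. The count of calls depended on the test and on the number of libraries. The edgeR quasi-likelihood test called 0 of the 836 and 0 of all 24638 windows tested. At an unadjusted p below 0.05 it had 22 of the 836 and 2686 of all, against 89 and 4913 in the fit used here. A fit with no squeezing of the dispersions called 0 of the 836 and 170 of all, with 86 and 4221 at an unadjusted p below 0.05. Leaving out SENbp 1, 2, 3 or 4 gave 4, 1, 2 and 3 calls, and leaving out SEN 1, 2, 3 or 4 gave 2, 4, 1 and 1. Over all windows tested the calls fell as well, from 891 to between 427 and 726. In the 4 windows described next the groups did not overlap, so leaving out a single library could not reverse a difference. Only its size is informative there.

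The largest increase among the called windows was in 921001 to 922000 of KB708332.1. SENbp was at 72.35, 69.27, 62.92 and 66.52% and SEN at 38.03, 36.3, 44.75 and 25.47%, so the groups lay apart, with a difference of 31.63 points (adjusted p = 0.0409, quasi-binomial F test, n = 4 technical replicates each). Leaving out each of the 8 libraries in turn gave differences of 28.08 to 34.5 points, none of them past the adjusted p threshold with 7 libraries. In 68001 to 69000 of KB708246.1, one of the most variable windows above, SENbp was at 60, 64.2, 78.37 and 70.28% and SEN at 42.75, 51.88, 31.98 and 33.53%. The difference was 28.18 points (adjusted p = 0.0234, quasi-binomial F test), and ran from 24.79 to 32.12 points on leaving out each library, with the call kept in 4 of the 8 cases. SENbp was also above every library of the other groups there except MTc 4, at 70.67%, and DMSO 2, at 72.47%, which lay among its libraries.

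In 3996001 to 3997000 of KB708252.1 SENbp was at 62.31, 71, 57.73 and 74.76% and SEN at 36.17, 43.28, 48.38 and 45.24%, a difference of 23.18 points (adjusted p = 0.0352, quasi-binomial F test). On leaving out each library the difference ran from 20.41 to 26.09 points, and the call was kept in 1 of the 8 cases. The single decrease was in 1588001 to 1589000 of KB708178.1. SENbp was at 42.45, 37.71, 28.31 and 43.99% and SEN at 56.62, 69.71, 54.61 and 60.21%, and the level fell by 22.18 points (adjusted p = 0.0243, quasi-binomial F test). On leaving out each library the difference ran from -24.13 to -18.91 points, and the call was kept in 5 of the 8 cases.

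The other calls were the mixed window of KB708147.1 described above and 1836001 to 1837000 of KB708257.1, which is named because the calls were few, after its values were seen. In KB708147.1 SENbp was at 66.48, 74.04, 63.75 and 73.32% and SEN at 54.26, 49.86, 53.67 and 57.12%, 15.67 points apart (adjusted p = 0.0327, quasi-binomial F test). The pools and Nc had means of 31.32 to 32% there and MTc of 40.42%. All SEN and SENbp libraries were above the other 16, though the lowest SEN library, at 49.86%, was barely above MTc 2, at 49.73%. Fetal origin, culture and time cannot be told apart in this difference. In KB708257.1 SENbp was at 62.05% ± 5.68 and SEN at 42.41% ± 8.21 (adjusted p = 0.0363, quasi-binomial F test). With edgeR the adjusted p-values of the 6 windows were 0.239 to 0.387.

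Between transformed and normal colonies no intermediate window was called. The quasi-binomial test called 0 of 830, where 0.0% of all 26825 windows tested were called. Their smallest adjusted p was 0.502. At an unadjusted p below 0.05 there were 28, against 2177 of all windows tested, and 4 with edgeR, against 781. The edgeR test called 0 of these and 0 of all. The groups did not overlap in 15 windows (1.81%), against 3.14% of all. The 3 windows with the smallest p, none past the threshold, were on KB708127.1, KB708290.1 and KB708250.1. In 77943001 to 77944000 of KB708127.1, MTc was at 57.05, 65.39, 78.32 and 70.05% and Nc at 48.06, 17.47, 32.02 and 58.46%, with overlap of 1 library each. In 3120001 to 3121000 of KB708290.1, MTc was at 32.51, 31.92, 34.49 and 70.72% and Nc at 57.24, 54.17, 70.04 and 61.29%. MTc 4 was above all Nc libraries there, and below them, with an MTc mean of 30.31%, only when positions in the top 0.1% of coverage were left out as in the test. With positions counted equally the mean of this window over the 24 libraries was 24.16%, against 54.67% with coverage as the weight. In 5631001 to 5632000 of KB708250.1, MTc was at 66.34, 65.51, 73.31 and 61.34% and Nc at 56.33, 43.8, 32.98 and 49.86%, which do not overlap.

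Between B[a]P-treated and vehicle-treated pools the quasi-binomial test called 0 of 828 intermediate windows, where 0.0% of all 18421 windows tested were called. The smallest adjusted p was 0.752 (quasi-binomial F test). At an unadjusted p below 0.05 there were 18 windows, against 1172 of all windows tested, and 1 with edgeR, against 408. The edgeR test called 0 of these and 0 of all. The groups did not overlap in 9 windows (1.09%), against 2.87% of all. The smallest p was in the densest intermediate window, on KB708177.1, with means of 59.03% ± 3.34 in B[a]P and 49.82% ± 6.12 in DMSO (adjusted p = 0.752, quasi-binomial F test). Next were 6640001 to 6641000 of KB708147.1, with 68.25% ± 14.9 and 42% ± 19.8, and 866001 to 867000 of KB708346.1, with 48.99% ± 7.81 and 30.72% ± 15.6. Both had overlapping groups.

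At the limits of the rule, the window just inside 30% was 1265001 to 1266000 of KB708249.1, with Nc at 30.01%, and the one just outside was 6878001 to 6879000 of KB708228.1, with Nc at 29.96%. Just inside 70% was 2043001 to 2044000 of KB708254.1, with Nc at 69.99%, and just outside was 5335001 to 5336000 of KB708147.1, with MTc at 70.01%. Their SDs over the libraries were 17.8, 20.2, 18.5 and 17.7 points, far above their distance from the limits.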

How the data were processed

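The deposited tables list, per the file headers, each CpG strand with its coverage, a count of reads, and with the percent of these that read C (methylated) or T. No deposited position has under 10 reads, and whether PCR copies were removed is not shown, so spreads computed from counts cover counting error only. The authors used methylKit 1.10.0 in R 3.6.1, Bismark 0.22.1, Bowtie2, Trim Galore 0.5.0 and bcl2fastq 2.20.0.42, per the submitters' processing notes. The assembly, not given in the sources used here, is known by its scaffold names alone.

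Groups and replicate numbers came from the sample labels. Windows of 1 kb, levels and classes were computed in Python 3.11.15 (numpy 2.4.6, pandas 2.3.3) from every listed position. The 3 comparisons used R 4.3.3 with limma 3.58.1 (dispersions squeezed within 10 classes of pooled methylation, floor of 1) and edgeR 4.0.16 as the alternative. They leave out the top 0.1% of positions by coverage in each library, so 828 to 836 of the 867 windows were tested. The test was tried on simulated windows, where unchanged windows had p-values below 0.05 somewhat more often than the nominal rate, so adjusted p-values near the threshold are somewhat too small. Same-numbered libraries did not deviate together (correlations of -0.0277 to 0.0303), so replicates were not paired. No pair of replicates agreed within the noise of independent counts.

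Named windows were the 5 steadiest and 5 most variable with 10 or more positions in each library, the 5 longest runs, the 5 with the most positions, per comparison the largest called differences or the 3 smallest p, the 3 uniform and 3 mixed windows with the most positions, the 3 scaffolds with the most and with the highest share, and the windows at each limit. The windows and these rules were chosen with earlier results of these data known.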

Additional observations from a re-analysis of the deposited data

Results flagged for a closer look

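Among 234 groups of 4 libraries examined for the named windows and library totals, 12 held a library far from its 3 replicates, where chance gives about 11.7. These are single values with no test of a cause.

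In 5 of them the library stood more than 20 points from the nearest replicate. Nc 1 was at 0.641% in 513001 to 514000 of KB708411.1 (others 67.99 to 77.56%), and B[a]P 2 was at 7.55% in 68001 to 69000 of KB708246.1 (others 39.31 to 44.39%). In 8206001 to 8207000 of KB708174.1, MTc 3 was at 69.23% (others 32.66 to 38.43%), in 921001 to 922000 of KB708332.1 MTc 2 was at 65.8% (others 36.81 to 40.64%), and in 3120001 to 3121000 of KB708290.1 MTc 4 was at 70.72% (others 31.92 to 34.49%).

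The other libraries were closer to their replicates. MTc 1 was at 30.13% in 55249001 to 55250000 of KB708128.1 (others 41.85 to 43.58%), and DMSO 4 was at 44.25% in 1090001 to 1091000 of KB708147.1 (others 26.45 to 28.77%). In 2952001 to 2953000 of KB708177.1, DMSO 1 was at 37.48% (others 47.59 to 48.41%) and SEN 2 at 66.64% (others 61.02 to 61.13%). MTc 4 was at 42.65% in 6519001 to 6520000 of the same scaffold (others 51.56 to 52.34%). B[a]P 3 was at 56.78% in 21514001 to 21515000 of KB708140.1 (others 61.74 to 62.74%), and DMSO 1 was at 32.57% in 645001 to 646000 of KB708395.1 (others 36.48 to 36.85%).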

How the results depend on the processing

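The number of intermediate windows, 867, was 333 with 5 or more positions required, 408 with 20 or more reads per position, 103 with limits of 40 to 60%, 2497 with limits of 20 to 80% and 235 over positions listed in all 24 libraries. Leaving out each library in turn gave 820 to 972. The median SD between replicates, 13.99 points averaged over the groups of a window, was 10.24 with limits of 40 to 60% and 8.57 over positions listed in all 24 libraries, and 13.6 to 14.0 without single libraries. The median number of positions was 13.54, 7.96, 6.83 and 4 with 5 positions required, 20 reads, limits of 40 to 60% and positions listed in all 24 libraries, and 8.74 to 9.13 without single libraries. The share adjoining another intermediate window was 0.973% with shifted windows, 0% with limits of 40 to 60% and 4.57% with 20 to 80%, and 2.29 to 3.40% without single libraries. The share of positions at 30 to 70% was 57.8% with limits of 40 to 60%, 49.6% with 20 to 80% and 57.7% over positions listed in all 24 libraries, and 53.3 to 55.9% without single libraries.

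The calls between bypass and senescence were 0 with no squeezing, 0 with edgeR and 1 to 4 without single libraries, against 6. Of all windows tested the same settings called 170, 0 and 427 to 726, against 891. In the 4 windows followed the groups did not overlap, so the direction could not reverse without a single library. Without the upper limit on coverage there were 9 (945 of all windows tested), which added bases 1 to 1000 of APMT01237495.1, 77943001 to 77944000 of KB708127.1 and 93001 to 94000 of KB708510.1, named after their values were seen. With the replicate number as a block, 1 window was called between bypass and senescence (KB708178.1, adjusted p = 0.0483, quasi-binomial model), 1 between B[a]P and DMSO and 0 between MTc and Nc. Of all windows tested 513, 9 and 23 were called. The B[a]P window was 2205001 to 2206000 of KB708281.1, at 63.05% ± 22.07 in B[a]P and 36.58% ± 31.4 in DMSO (adjusted p = 0.000325, quasi-binomial model). Its groups overlapped, and its coverage summed over positions was as low as 95 in a library. The replicate numbers do not pair the libraries. Where not stated, the cause of a change was not tested. Of windows with 10 to 30 reads per position, 1.05% were intermediate, the lowest share of the 5 coverage classes.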
